A study of Mus musculus with 3 samples.

Results

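The genes described here encode proteins that neutrophils store or hold in bulk. They are Mpo, Elane and Prtn3 of the azurophil (primary) granules, Ltf, Lcn2, Camp and Ngp of the specific (secondary) granules, the cytosolic S100a8 and S100a9, and the resistin-like gene Retnlg. Members were chosen by gene name: every probe with a listed symbol that was not a control spot was taken. This gave 10 genes read by 12 probes, out of 56605 probes on the array, with a pair of probes each for Mpo and Lcn2 and a single probe for every other gene.

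Neutrophils fill their granules in sequence while they mature in the bone marrow. Azurophil proteins such as myeloperoxidase and the serine proteases are transcribed in promyelocytes, specific granule proteins in myelocytes and metamyelocytes, and mature cells keep little azurophil message while S100a8 and S100a9 stay abundant. In the mouse the spleen can also form neutrophils, so a spleen suspension may hold both precursors and mature cells.

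All groups were cultured spleen cells of the MRL/MpJ strain, labelled as male and 6 months of age, with an intact Fas gene and with red cells lysed by ammonium chloride. Contact lasted 3 h, either to PBS, to urine from male MRL/MpJ donors or to urine from male MRL/MpJ-Faslpr/lpr donors, which carry the lpr mutation of the death receptor Fas and develop lupus-like disease ("lpr urine" from here on). Urine came from 6 donors of each strain, aged 6 months, was pooled per strain and passed a 0.22 µm filter. The labels do not settle the number of spleens, the wells held 500 µL, and the share of urine in a well, its osmolality, its endotoxin content and cell viability were not given in the sources used here. With 1 array per condition there was no replicate, so no test was possible, and treatment, culture well and array cannot be told apart.

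RNA was read on 3 single-colour Agilent arrays of 1 slide. The arrays differed in brightness over all probes: the 75th percentile of processed signals stood at 157.5 (PBS), 86.6 (MRL/MpJ urine) and 75.7 (lpr urine). The probes of the E1A spike-in control RNAs did not share that drop. Over the 8 of these probes that were well above background on all arrays, the median log2 signal was 10.78, 10.82 and 10.71. The level of a probe was therefore given as log2 signal minus its array's 75th percentile, and each difference was also given on the scale of the spike-ins. On that scale every log2 difference from PBS is lower by 0.91 (MRL/MpJ urine) or 0.99 (lpr urine). The spike-in scale assumes equal amounts of spike-in on the arrays, which the labels do not state. The software's error of a spot, turned into an SD of a log2 difference, was near 0.2 for bright probes. It took the same value, 0.204, for the bright member probes, so it is the software's estimate and not a spread measured here. It covers spot error on the array only, and not differences between wells.

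Before scaling, Mpo was the member with the widest difference: its brighter probe had 36.0% (MRL/MpJ urine) and 21.0% (lpr urine) of its PBS signal. The probes of the specific granule and S100 genes stayed between 83.1% and 103% of their PBS signal, and Retnlg stood at 130% and 118%.

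Promoters of members of each class are shown so that 2 motifs of myeloid transcription factors can be read in them. Each run is the 250 bases before the RefSeq transcription start on GRCm38.p6, 5′ to 3′ on the gene's strand. Capitals mark GAGGAAG, a core bound by PU.1, or TTNNGNAA, a core bound by C/EBP factors, on either strand. The first 3 sequences belong to azurophil genes, the next 2 to specific granule genes and the last to S100a8.
Mpo, chr11:87793534-87793783, plus strand: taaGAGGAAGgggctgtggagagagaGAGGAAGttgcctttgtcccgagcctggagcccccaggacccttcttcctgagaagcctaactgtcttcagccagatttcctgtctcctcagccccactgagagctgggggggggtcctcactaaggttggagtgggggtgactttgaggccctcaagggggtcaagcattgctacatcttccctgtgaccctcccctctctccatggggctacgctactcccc
Prtn3, chr10:79879417-79879666, plus strand: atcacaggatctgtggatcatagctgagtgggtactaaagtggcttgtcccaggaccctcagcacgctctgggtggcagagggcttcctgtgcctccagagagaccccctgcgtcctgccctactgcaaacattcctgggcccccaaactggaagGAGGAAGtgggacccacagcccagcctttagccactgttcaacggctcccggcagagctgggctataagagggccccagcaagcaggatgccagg
Elane, chr10:79886062-79886311, plus strand: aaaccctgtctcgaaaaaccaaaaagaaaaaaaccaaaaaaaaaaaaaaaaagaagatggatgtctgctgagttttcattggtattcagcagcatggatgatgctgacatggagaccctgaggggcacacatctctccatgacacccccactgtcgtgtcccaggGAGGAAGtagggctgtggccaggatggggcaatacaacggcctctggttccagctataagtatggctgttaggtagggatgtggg
Ltf, chr9:111019042-111019291, plus strand: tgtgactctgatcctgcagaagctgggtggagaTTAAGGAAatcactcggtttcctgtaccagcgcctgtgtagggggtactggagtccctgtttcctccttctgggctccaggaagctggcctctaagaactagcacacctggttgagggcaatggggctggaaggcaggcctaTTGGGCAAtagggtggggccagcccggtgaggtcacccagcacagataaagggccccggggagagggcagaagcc
Ngp, chr9:110419558-110419807, plus strand: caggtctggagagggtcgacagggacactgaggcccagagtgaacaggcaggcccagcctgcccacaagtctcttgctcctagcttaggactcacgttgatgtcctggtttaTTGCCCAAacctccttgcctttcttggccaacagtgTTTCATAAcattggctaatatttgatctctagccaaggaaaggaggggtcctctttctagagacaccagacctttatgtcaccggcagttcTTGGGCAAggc
S100a8, chr3:90668821-90669070, plus strand: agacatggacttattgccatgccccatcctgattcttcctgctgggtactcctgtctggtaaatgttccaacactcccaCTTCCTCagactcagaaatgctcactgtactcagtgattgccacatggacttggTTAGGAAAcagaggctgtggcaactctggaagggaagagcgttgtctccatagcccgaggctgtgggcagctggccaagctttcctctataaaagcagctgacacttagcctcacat

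GAGGAAG occurred in all 3 azurophil promoters, with 2 copies in Mpo and 1 each in Prtn3 and Elane, and none of those 3 held TTNNGNAA. Ngp held 3 copies of TTNNGNAA and Ltf held 2, both without GAGGAAG. S100a8 and Lcn2 held 1 of each, S100a9 and Retnlg held TTNNGNAA alone, and Camp, also a specific granule gene, held neither. Over all 10 genes, which all matched the RefSeq table, 6 promoters held TTNNGNAA and 5 held GAGGAAG. The same windows of 32851 mouse promoters held TTNNGNAA in 36.8% and GAGGAAG in 10.6%. AACNG, a core bound by MYB, was in all 10 promoters and in 74.2% of those searched, and TATAAA was in 1 of the 10 (S100a8, 30 bases before the start) and in 12.4%. In S100a8 and Lcn2 a TTNNGNAA match shares 2 bases with an AACNG match, and no TTNNGNAA match overlaps GAGGAAG. A match to these letters is a description of the window and no evidence of binding.

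In the RefSeq table Prtn3 and Elane are next to each other on chromosome 10 with no coding gene between them, followed by Cfd (complement factor D). S100a8 and S100a9 are neighbours on chromosome 3. On chromosome 9, 8 coding genes lie between Camp and Ngp and 20 between Ngp and Ltf. Retnlg is next to Retnla on chromosome 16.

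The probes are 60 bases long, and their positions are those of the array's annotation on mm9. Placement in exons or UTRs was not analysed here. A probe is shown for 4 genes whose values the results turn on, Mpo and Prtn3 for the azurophil class, Ngp for the specific granule class, and S100a8.
Mpo probe 2: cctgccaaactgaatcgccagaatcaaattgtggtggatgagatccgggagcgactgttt
Prtn3: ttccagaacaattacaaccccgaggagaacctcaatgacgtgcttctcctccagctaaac
Ngp: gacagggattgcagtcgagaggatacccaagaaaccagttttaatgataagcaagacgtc
S100a8: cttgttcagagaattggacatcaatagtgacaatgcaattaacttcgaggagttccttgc

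Myeloperoxidase makes hypochlorous acid from hydrogen peroxide. Mpo probe 1 (NM_010824, chr11:87617102-87617877, plus strand, its 60 bases spread over 776 bases of genome) had a processed signal of 292.1 (PBS), 105.2 (MRL/MpJ urine) and 61.4 (lpr urine). Signal was highest with PBS and lowest with lpr urine, at 36.0% and 21.0% of the PBS signal. On the 75th percentile scale the log2 difference from PBS was -0.61 for MRL/MpJ urine and -1.19 for lpr urine (2.29-fold lower), each with a spot-error SD of 0.21. Mpo probe 2 (AY500847, chr11:87615121-87615180) read 45.3, 17.3 and 12.6 in the same order, and its differences were -0.53 and -0.78. Both probes thus ran in the same order over the arrays. Under normexp background correction, which adds an offset of 50 to each signal, probe 2 turned to 0.09 and 0.13 above PBS, whereas probe 1 stayed below it at -0.52 and -0.85.

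Proteinase 3 and neutrophil elastase are serine proteases of the same granules. Prtn3 (NM_011178, chr10:79343869-79344685, plus strand) was dim throughout, with a signal of 14.7 (PBS), 8.89 (MRL/MpJ urine) and 4.31 (lpr urine), the last not well above background. Its difference was 0.14 with MRL/MpJ urine against PBS (spot-error SD 0.28), and with lpr urine only a bound was given: PBS was at least 1.59-fold higher (3.17-fold on the spike-in scale), and MRL/MpJ urine at least 1.76-fold higher than lpr urine. Under normexp the Prtn3 differences from PBS were 0.49 and 0.49, so its direction with lpr urine turned, and under quantile normalization they were -0.22 and -1.13. Elane (NM_015779, chr10:79350902-79350961) gave 94.7, 57.4 and 56.6. It stood at 60.6% and 59.8% of the PBS signal, with 75th percentile differences of 0.14 and 0.32. Unlike both Mpo probes and Prtn3, Elane had nearly the same signal with the 2 urines.

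Lactoferrin, encoded by Ltf, binds iron in secretions. Ltf (NM_008522, chr9:110942873-110942932) read 1417.4 (PBS), 1296.2 (MRL/MpJ urine) and 1193.5 (lpr urine), and its differences were 0.73 and 0.81. Lcn2 encodes neutrophil gelatinase-associated lipocalin, which binds bacterial siderophores. Its probe 1 (NM_008491, chr2:32241037-32241281, minus strand) read 566.6, 581.7 and 524.5, and its probe 2 (chr2:32240199-32240258, minus strand) read 1848.2, 1652.5 and 1643.4. The pair of Lcn2 probes gave 0.90 and 0.70 with MRL/MpJ urine and 0.95 and 0.89 with lpr urine. The 3 arrays were close for both probes, and every value lay between 88.9% and 103% of the PBS signal.

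Camp encodes the precursor of the antimicrobial cathelicidin, and Ngp the neutrophilic granule protein, a cystatin-related protein. Camp (NM_009921, chr9:109749911-109749970, minus strand) read 2473.2, 2310.2 and 2218.9. Ngp (NM_008694, chr9:110324266-110324814) read 841.4, 717.7 and 722.1. The Camp differences were 0.76 and 0.90 and the Ngp differences 0.63 and 0.84. Ngp with MRL/MpJ urine was the lowest of the 8 probes outside the azurophil group.

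S100a8 and S100a9 form calprotectin, a calcium- and zinc-binding complex that signals through Toll-like receptor 4. S100a8 (NM_013650, chr3:90473778-90473837, plus strand) read 10058.9, 9986.7 and 9282.0, with differences of 0.85 and 0.94. S100a9 (NM_001281852, chr3:90496573-90496632, minus strand) read 28549.6, 26059.4 and 23723.7, with differences of 0.73 and 0.79. The pair ran in the same order over the arrays, with PBS highest before scaling, although both spike-in scaled differences of each gene (-0.05 and -0.05, -0.18 and -0.20) were within the spot error. Quantile normalization gave smaller differences for this pair, 0.45 and 0.48 for S100a8 and 0.09 and 0.07 for S100a9.

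Retnlg encodes resistin-like gamma, a secreted protein of myeloid cells. Retnlg (NM_181596, chr16:48874468-48874527) read 814.2 (PBS), 1061.2 (MRL/MpJ urine) and 963.0 (lpr urine), and it had the highest difference of the members against PBS, 1.25 (2.37-fold) and 1.30 (2.46-fold). It was the sole member whose spike-in scaled difference was above 0 by more than its spot error in both comparisons, at 0.34 and 0.31. The software marked 0 member spots as outliers and 0 as saturated.

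**Figure D1:**
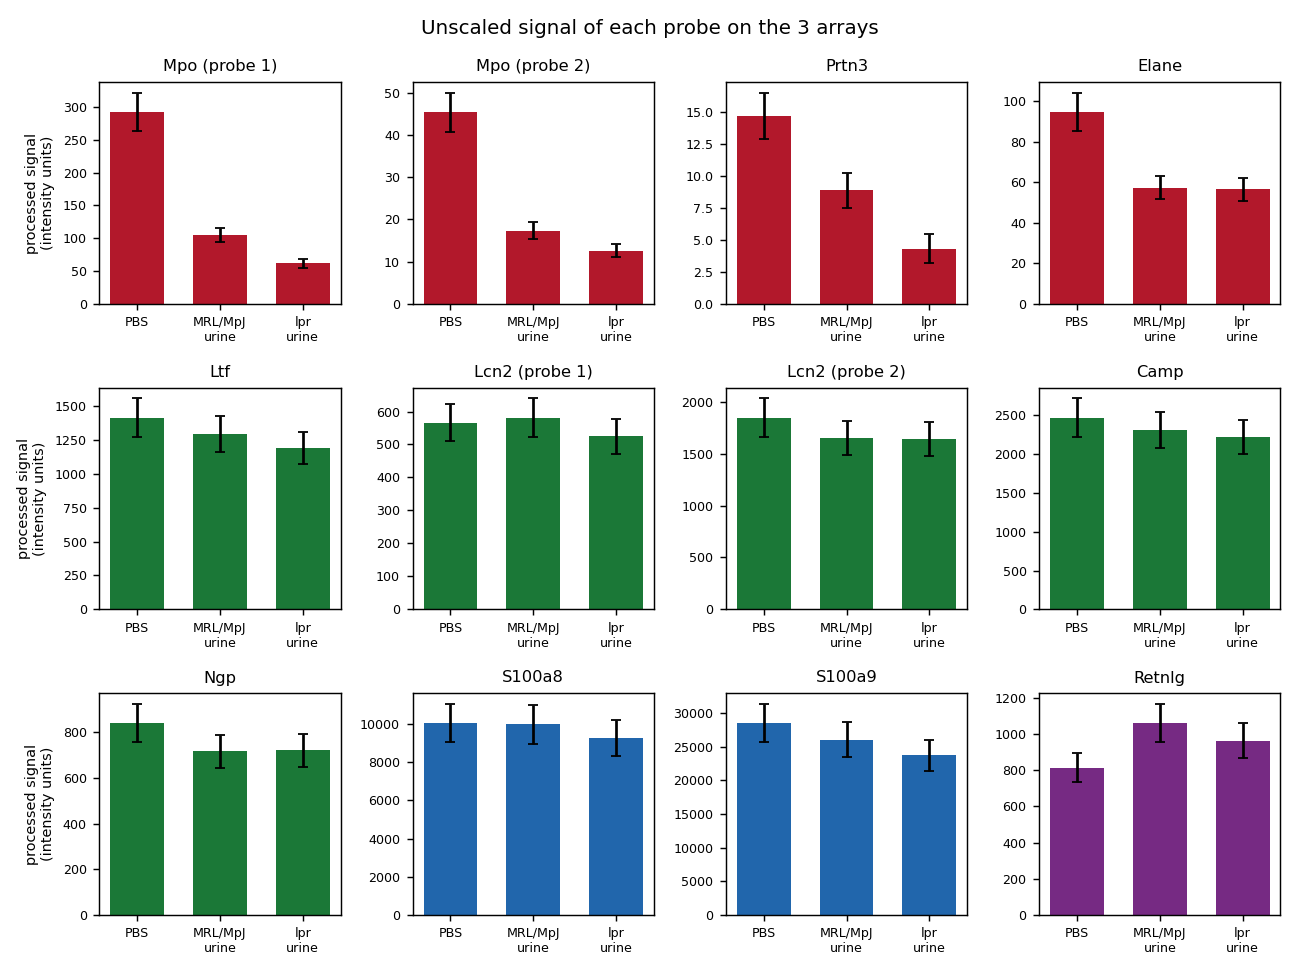
Bars give the processed signal (intensity units, before any scaling) of each of the 12 probes on the PBS, MRL/MpJ urine and lpr urine arrays, and error lines give the software's error of the spot. Red marks azurophil, green specific granule, blue S100 and purple Retnlg probes; both Mpo probes step down from PBS to lpr urine, from 292.1 to 61.4 for probe 1, whereas S100a8 stays between 9282.0 and 10058.9.

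With MRL/MpJ urine the 4 azurophil probes differed from PBS by -0.61 to 0.14 and the 8 other probes by 0.63 to 1.25, so the groups of probes did not overlap and were 0.49 apart. With lpr urine the ranges were -1.19 to 0.32 and 0.79 to 1.30, again without overlap, 0.48 apart, with Prtn3 entering by a signal that was not well above background. Those gaps do not depend on a shift of the whole array, and were the same under spike-in or array median scaling. They closed under normexp (-0.12 and -0.06) and under quantile normalization (-0.003 and -0.20), where S100a9 was the lowest probe outside the azurophil group. The more limited statement held under each of the 6 settings compared: both Mpo probes lay below all 8 probes outside the azurophil group against PBS, by 0.27 to 1.17 with MRL/MpJ urine and by 0.30 to 1.60 with lpr urine. Both comparisons use the same PBS array and are not independent. In a mixed suspension, fewer cells of a type and less RNA per cell cannot be told apart.

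For most probes, whether they stood above or below PBS depended on the scaling. On both the 75th percentile and the spike-in scale, Retnlg stayed above PBS, and both Mpo probes, and Prtn3 with lpr urine, stayed below it. On the spike-in scale the 8 probes outside the azurophil group lay between -0.27 and 0.34 with MRL/MpJ urine and between -0.20 and 0.31 with lpr urine. Of those 8, 5 and 7 were within their spot-error SD of 0. The 4 azurophil probes lay between -1.52 and -0.77, and between -2.18 and -0.68. All of those lay below 0 by more than the spot error. The median of all measured probes was -0.85 and -0.91 on that scale, and 0.06 and 0.08 on the 75th percentile scale. Against all probes measured on both arrays, the probes outside the azurophil group ranked between percentiles 73.3 and 88.9 with MRL/MpJ urine and between 76.8 and 88.6 with lpr urine. Of the azurophil probes, Mpo probe 1 ranked at percentiles 23.2 and 9.67 and Mpo probe 2 at 26.1 and 18.5. Elane ranked near the middle of all probes, at 53.5 and 59.2, as did Prtn3 with MRL/MpJ urine (53.5). Prtn3 was not ranked with lpr urine.

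**Figure D2:**
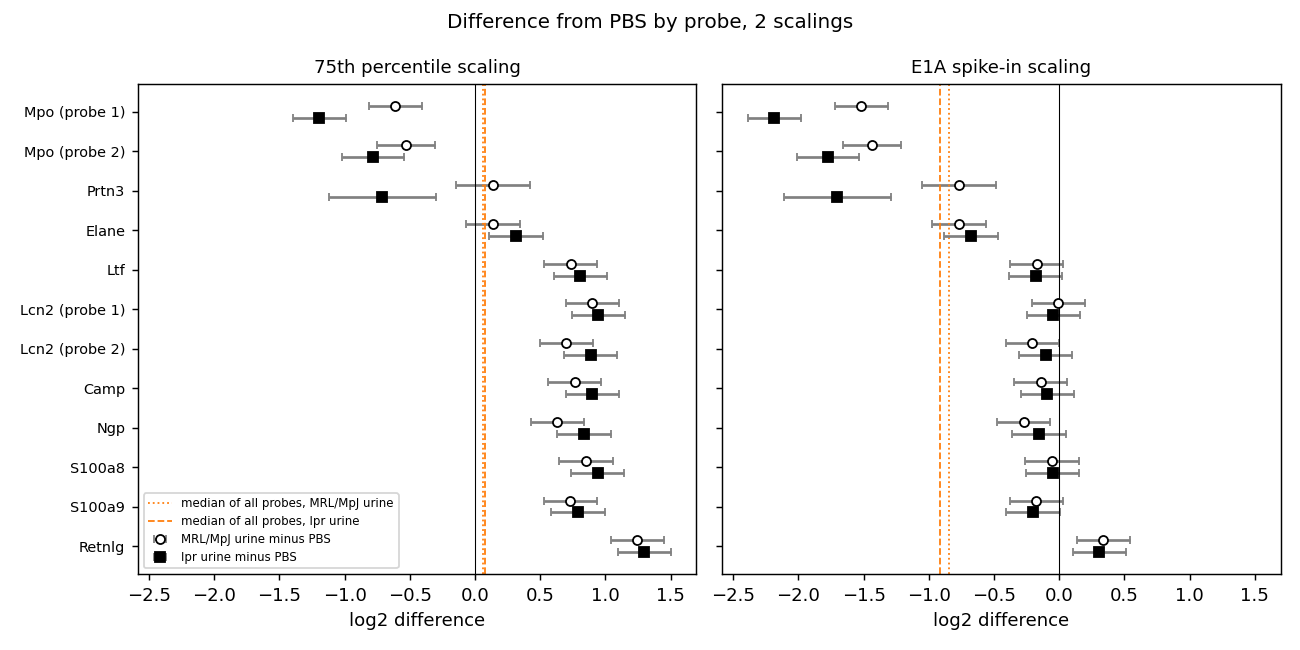
Points give the log2 difference from PBS of each probe with MRL/MpJ urine (open) and lpr urine (filled), lines give the spot-error SD, and orange lines the median of all probes, under 75th percentile scaling (left) and spike-in scaling (right). The order of the probes is the same in both panels, while the zero line moves from below most probes (left) to above most of them (right); the Prtn3 point with lpr urine was not well above background.

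At the 2-fold threshold 1 of the 12 probes was higher with MRL/MpJ urine (Retnlg) and 0 were lower, beside 15.5% higher and 12.4% lower of all probes measured on both arrays. With lpr urine, 1 of the 11 measured probes was higher (Retnlg) and 1 lower (Mpo probe 1), beside 16.9% and 13.2%. On the spike-in scale no member probe was 2-fold higher and 2 were lower (both Mpo probes) in each comparison, where 4.95% and 4.99% of all probes were higher and 43.5% and 46.5% lower. The members' share was below that of all probes in each case, and with so few probes these counts are no result about the members. The median difference over the member genes was 0.72 with MRL/MpJ urine (10 genes) and 0.84 with lpr urine (9 genes), against 0.13 and 0.15 over all genes. On the spike-in scale the member medians were -0.19 and -0.15.

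**Figure D3:**
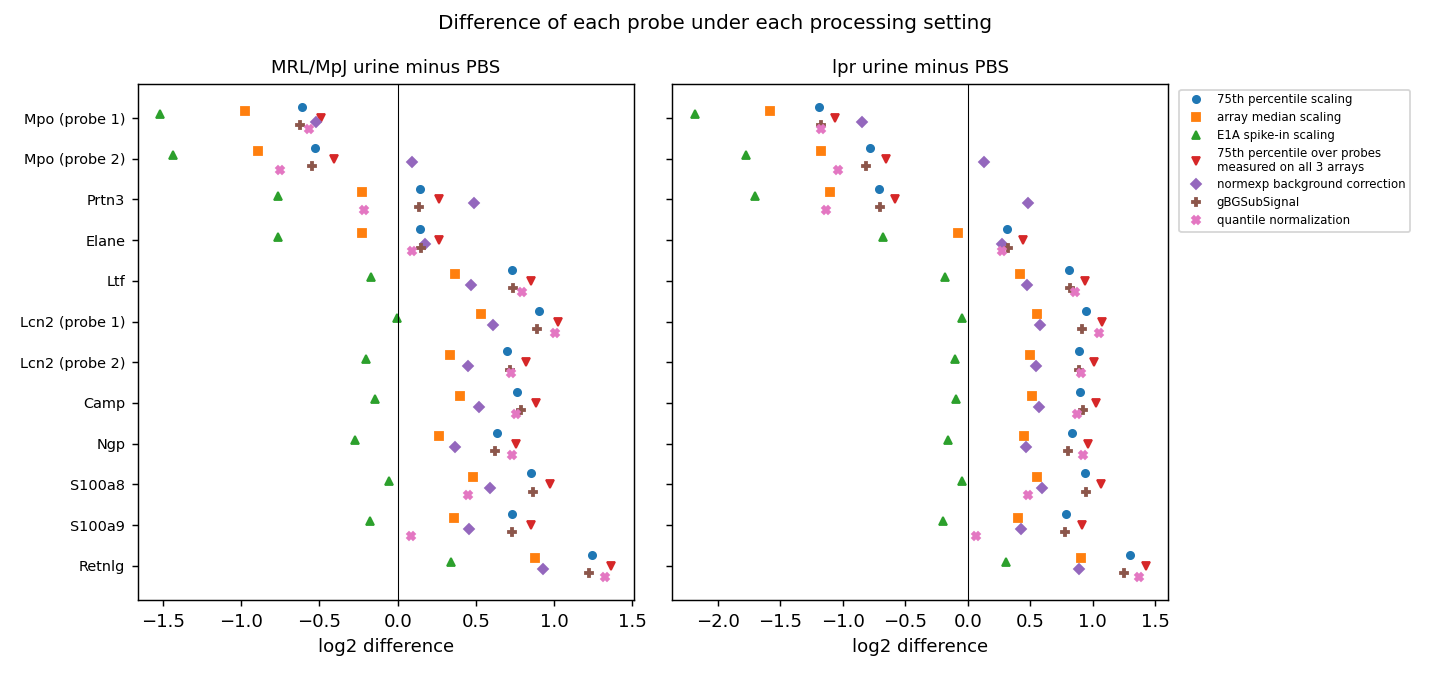
Each row is a probe and each marker its log2 difference from PBS under a scaling or background setting, with MRL/MpJ urine (left) and lpr urine (right); gBGSubSignal is the software's background-subtracted signal before detrending. Both Mpo probes sit left of the probes from Ltf down within each setting, although normexp moves Mpo probe 2 to the right of 0 (0.09 and 0.13).

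The 2 urine arrays were then compared directly. Of the 12 probes, 9 differed between lpr urine and MRL/MpJ urine by less than their spot-error SD, among them all 8 probes outside the azurophil group, which differed by 0.05 to 0.20. The other three, both Mpo probes and Prtn3, were lower with lpr urine on the 75th percentile scale. Under normexp Mpo probe 1 kept its direction at -0.33, whereas Mpo probe 2 turned to 0.04 and Prtn3 was at -0.003. Mpo probe 1 differed by -0.58 (spot-error SD 0.21), at percentile 1.30 of all probes measured on both arrays. Mpo probe 2 differed by -0.25, just past its SD of 0.25, at percentile 9.65. None of the 11 member probes measured on both arrays reached 2-fold in either direction, where 0.294% of all probes were higher and 0.0719% lower. Prtn3 was not counted, since its bound (MRL/MpJ urine at least 1.76-fold higher) does not settle whether it reached 2-fold. The azurophil range overlapped that of the other probes in this comparison, since Elane differed by 0.18.

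Values in the lists that follow are 75th percentile scaled log2 differences from PBS, with MRL/MpJ urine first and lpr urine second. Other azurophil genes and the genes that mature their proteases gave a median of -0.44 with MRL/MpJ urine (7 of 9 measured on both arrays) and -0.55 with lpr urine (6 measured). None was 2-fold higher, and 0 and 1 were 2-fold lower. Over all genes measured on both arrays, 16.9% (MRL/MpJ urine) and 18.5% (lpr urine) were 2-fold higher and 11.1% and 12.0% lower, which is the background for the list counts that follow too. Cathepsin G, encoded by Ctsg and held in the same granules as elastase, read 62.1 (PBS), 21.8 (MRL/MpJ urine) and 11.6 (lpr urine). Its differences were -0.65 and -1.36, and it differed by -0.71 between lpr and MRL/MpJ urine, at percentile 0.562. Its signal therefore ran in the order of Mpo. Also named by size were Srgn, the granule proteoglycan serglycin (-0.88 and -0.91, with another of its 3 probes at 0.80 and 0.87), and Lyz2, lysozyme (0.79 and 0.50). Srgn and Lyz2 are also used by other cells of the spleen.

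Other specific and gelatinase granule genes gave medians of 0.71 (14 of 16 measured) and 0.70 (15 measured), beside the 0.72 and 0.84 of the members. With MRL/MpJ urine 2 were 2-fold higher and 0 lower, and with lpr urine 5 and 0. The largest were Cybb, the NADPH oxidase subunit (1.40 and 1.37), Mmp8, neutrophil collagenase (1.08 and 1.18), Cfp, properdin (0.98 and 1.08), and Anxa1 (0.90 and 1.04). Surface and cytoplasm genes of mature neutrophils gave medians of 0.40 and 0.60 (24 of 25 genes on the array), with 4 and 5 genes 2-fold higher and 2 and 2 lower. Lrg1, leucine-rich alpha-2-glycoprotein, was highest at 2.61 and 2.87, and Fpr1, the formyl peptide receptor, was lowest at -2.01 and -1.78. Itgam, integrin alpha-M, read 2.25 and 1.96 on its main probe and 0.22 and 0.76 on its other probe, so its probes disagree. Stfa3, a stefin, read 1.40 and 1.21, and Clec5a, a lectin receptor of myeloid cells, -1.27 and -1.57. Another of the 3 Clec5a probes read -0.38 with lpr urine, so its probes disagree in size.

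Of 7 granulocyte transcription factors, 1 and 2 were 2-fold higher and 1 and 1 lower. Gfi1, a transcriptional repressor that acts in granulocyte precursors, was lower at -1.71 and -1.76 and Cebpa higher at 1.18 and 1.13. Cebpb gave -0.71 and -0.75, Cebpd 0.65 and 1.08, and the median of the list was -0.08 and -0.11. The other genes with an S100 symbol, among them the binding protein gene S100pbp, gave medians of 0.34 (9 of 17 measured) and 0.54 (10 measured), below the 0.85 and 0.94 of S100a8, with 0 higher and 1 lower in each comparison. Among them S100a4 read 0.99 and 0.80, S100a13 0.79 and 0.84, and S100a16 -1.33 and -1.25, although its other probe read 1.08 and 1.20. In the resistin family 1 of 3 measured genes, Retnlg itself, was 2-fold higher in each comparison and 0 were lower. Retn read 0.84 and 0.41 (other probe -0.20 and 0.22), Retnla 0.56 and 0.45, and Retnlb was not well above background.

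Receptors of the members' proteins gave medians of -0.10 and -0.01 (9 of 10 measured), with 2 genes higher and 1 lower in each comparison. Ly96, the MD-2 partner of Toll-like receptor 4, read 2.46 and 2.25 (other probe 0.82 and 0.38), Slc22a17, a receptor for Lcn2, 1.89 and 1.61, Bsg, basigin, a receptor of S100a9, -1.11 and -1.03, and Fpr2, a receptor of cathelicidin, -0.91 and -0.83. Inhibitors of the granule proteases gave medians of 0.33 and 0.64 (9 of 12 measured), with 2 and 3 higher and 0 lower. Serpina1c, an alpha-1-antitrypsin, read 1.29 and 1.32, Cst7, cystatin F, 1.03 and 1.21, and Serpina1a 0.56 and 1.09. Serpina1c and Serpina1a were dim, with signals between 6.42 and 9.38. Others were below PBS, among them Serpinb1a (-0.43 and -0.57, with a PBS signal of 1371.3) and Serpinb1c (-0.38 and -0.48). On the spike-in scale the medians of these 8 related lists lay between -1.35 and -0.07 with MRL/MpJ urine and between -1.54 and -0.29 with lpr urine. Genes 2-fold higher on that scale were 2 and 1 of the mature neutrophil list and 1 and 1 of the receptors, and 0 in the other lists, beside 5.58% and 5.6% of all genes. Genes 2-fold lower on that scale were 5 and 5 of the azurophil list, 4 and 5 of the specific and gelatinase list, 7 and 5 of the mature neutrophil list and 3 and 4 of the transcription factors. They were 2 and 2 of the other S100 genes, 0 and 0 of the resistin family, 5 and 5 of the receptors and 2 and 3 of the inhibitors, beside 41.0% and 44.0% of all genes.

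**Figure D4:**
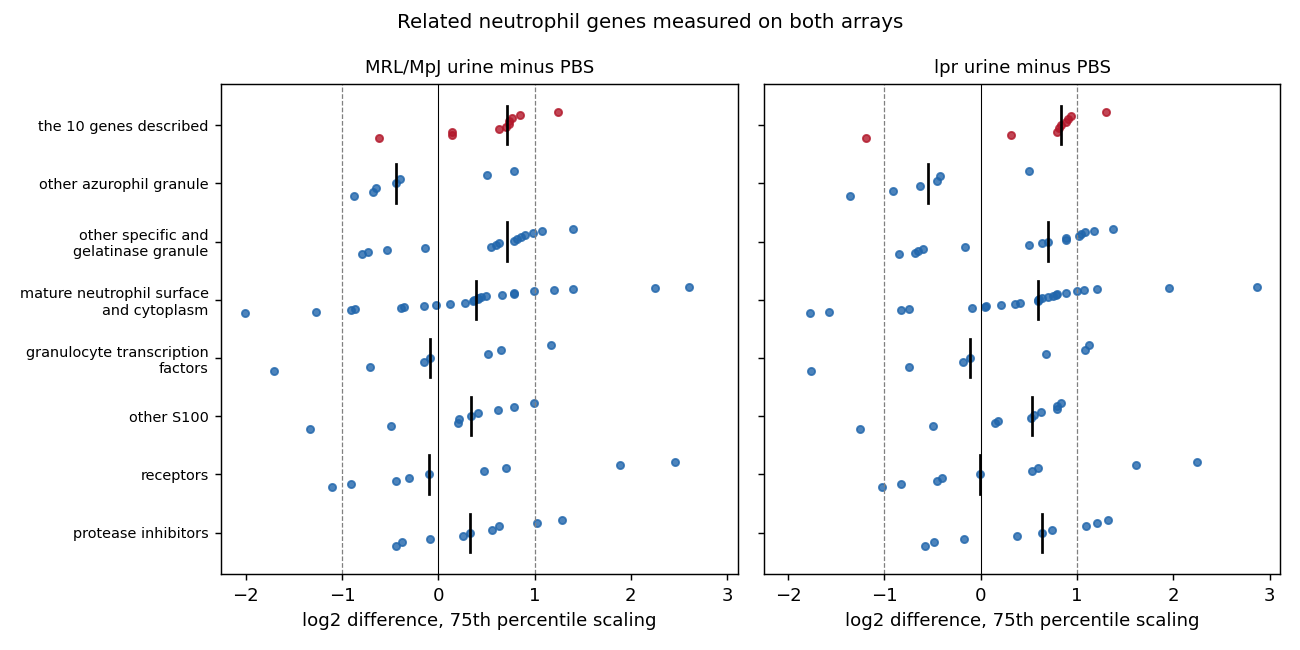
Each point is a gene measured on both arrays, by log2 difference from PBS under 75th percentile scaling, with MRL/MpJ urine (left) and lpr urine (right), black bars give the median of a list and dashed lines mark 2-fold. The 10 genes described (red; 9 with lpr urine) centre on 0.72 and 0.84, while other azurophil genes centre on -0.44 and -0.55; on the spike-in scale the 10 genes centre on -0.19 and -0.15.

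Markers of neutrophils, all 10 measured, had medians of 0.51 and 0.77 and summed signals of 29430.3, 35022.3 and 28393.2, and all 10 also stand in the lists above. Csf3r, the G-CSF receptor, made up most of that sum (26263.5, 33322.9 and 26638.0), and the other 9 markers summed to 3167.0, 1699.4 and 1755.1. Markers of neutrophil precursors had medians of 0.50 (7 of 8 measured) and 0.42 (6 measured), with summed signals of 2036.7, 992.7 and 857.5. Gfi1 gave most of the drop in that sum (1001.1, 168.5 and 141.9), and the other 7 markers summed to 1035.6, 824.3 and 715.6. Gfi1 and Ctsg were below PBS on the 75th percentile scale, while Cebpe (0.52 and 0.67), Chil3 (0.60 and 0.50), Mki67 (0.62 and 0.74) and Fcnb (0.40 and 0.34) were above it. On that scale the precursor markers thus did not move as a group with Mpo. On the spike-in scale the latter genes were below PBS too: Cebpe (-0.387 and -0.316), Chil3 (-0.312 and -0.488), Mki67 (-0.283 and -0.255) and Fcnb (-0.508 and -0.655). Of these 8 markers, 6 stand in the lists above. The part of these cells in the member values was not tested. Markers of monocytes and macrophages, which may also carry S100a8, Lcn2 and Lyz2, had medians of 0.86 and 0.89 (12 measured), with summed signals of 8125.6, 7655.4 and 7054.9. Lymphocyte markers of the spleen were present: B cell markers (8 of 8 measured) had medians of 0.96 and 0.92 and T cell markers (7 measured) 0.14 and 0.23. The others were NK cells at -0.02 and 0.10, erythroid cells at 0.66 and 0.73, and platelets at 0.81 and 0.84. Spike-in scaled medians were -0.397 and -0.221 for neutrophils, -0.402 and -0.571 for their precursors, and -0.05 and -0.096 for monocytes and macrophages. They were 0.053 and -0.074 for B cells, -0.771 and -0.765 for T cells, and -0.926 and -0.888 for NK cells. Erythroid cells stood at -0.25 and -0.261 on that scale, and platelets at -0.098 and -0.153. Of 8 markers of urinary tract epithelium, 1 was measured (Upk1a, -0.59 and -0.51), and their summed signal was 35.3, 19.1 and 16.5, so it was not higher with urine.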

How the data were processed

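Spleen cell RNA was measured on 3 single-colour (Cy3) Agilent arrays, 1 per condition, on 1 slide and from 1 scan, per the file headers. The deposited processed signal, its error, the mean signal, the local background and the background-subtracted signal are intensity values from Agilent Feature Extraction 12.0.3.1, per the file headers and the submitters' processing notes. The processed signal is background-subtracted and detrended within an array and not normalised between arrays, per the file headers. Probe positions are on mm9, per the file headers.

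Spots of a probe were averaged after spots marked as outliers were removed, and 6 of 56605 probes without a usable spot were left out. Levels were log2 processed signal minus the 75th percentile of the array over non-control probes. A probe was counted as 2-fold higher or lower where the software called it well above background on both arrays. A probe measured on 1 array was given as a bound, against the higher of its own signal and the lowest signal well above background on the other array. A gene with several probes was read from the probe well above background on most arrays, ties to the brightest, and the members were shown by each probe. The alternatives were array median and E1A spike-in scaling, quantile normalization, other percentile sets, the background-subtracted signal and other thresholds. Normexp background correction (offset 50) was also tried, in limma 3.58.1 under R 4.3.3. The rest ran in Python 3.11.15. The 75th percentile, array median and quantile scalings were tested on simulated arrays that differed in brightness by a constant factor. The spike-in and normexp settings, the background filter and the bounds were not tested in that way.

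Every member was named with all its probes. From each related list the counts were given, with up to 4 genes of the largest difference in each comparison with PBS. The value of 1 such gene is not reported here. The members and lists were chosen with earlier results of these data known. The precision is limited by the number of arrays. The spread of repeat spots of a probe within an array was turned into an SD of a log2 difference between arrays. Its median was 0.05 (0.23 below a log2 signal of 5), and it holds no difference between wells or arrays. Promoters came from RefSeq on GRCm38.p6 and were not converted to mm9.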

Additional observations from a re-analysis of the deposited data

How the results depend on the processing

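The counts and the median of the members depended on the scaling and the threshold in the comparisons with PBS. Shares of all probes are given here for the 2-fold threshold under 75th percentile and spike-in scaling only. The member counts under other settings therefore have no such share beside them and are no result about the members. Between lpr and MRL/MpJ urine both counts were 0 under each setting tried and the median (0.09) lay between 0.005 and 0.09, but single azurophil probes moved under normexp: Mpo probe 1 from -0.58 to -0.33, Mpo probe 2 from -0.25 to 0.04 and Prtn3 from -0.85 to -0.003. With MRL/MpJ urine the count of 2-fold higher probes (1) was 0 under array median, spike-in and normexp scaling, 2 under the 75th percentile of probes measured on all arrays and under quantile normalization, 0 at 3-fold and 8 at 1.5-fold. The count of lower probes (0) was 2 under spike-in scaling and 1 at 1.5-fold. The member median (0.72) was 0.35 by array median, -0.19 by spike-in and 0.46 by normexp. With lpr urine the higher count (1) was 0 by array median, spike-in and normexp, 5 by the percentile of measured probes, 2 by quantile, 0 at 3-fold and 8 at 1.5-fold. The lower count (1) was 2 by array median, spike-in and quantile, 0 by normexp, 0 at 3-fold, 2 at 1.5-fold and 0 where the probes of a gene were averaged. Its median (0.84) was 0.45 by array median, -0.15 by spike-in and 0.48 by normexp. The cause was not tested. Retnlg (both comparisons) and Mpo probe 1 (lpr urine), the values past 2-fold, kept their sign in every setting, and the background-subtracted signal moved none of the 9 summary results or 36 probe results by more than the spot error. Against PBS, normexp turned the dim Mpo probe 2 to 0.09 and 0.13 and Prtn3 with lpr urine to 0.49, and quantile normalization moved S100a9 to 0.09 and 0.07. No paired analysis was possible because each condition has 1 array, and leaving out a replicate was not possible for the same reason.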

Other observations

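Markers of other granulocytes were read in the same way. Eosinophil markers had medians of 0.79 (MRL/MpJ urine) and 0.96 (lpr urine) against PBS, with 6 of 8 genes measured on both arrays, 2 and 3 of them 2-fold higher and 0 lower. Ear1 and Ear2, eosinophil-associated ribonucleases, read 1.49 and 1.35, and 1.37 and 1.27, and Epx, eosinophil peroxidase, was not well above background on any array. On the spike-in scale the eosinophil medians were -0.12 and -0.03, and no marker was 2-fold higher.

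Basophil and mast cell markers had medians of -0.58 and -0.02, with 6 of 8 genes measured on both arrays. Gata2 read -1.34 and -1.21 and Kit, the stem cell factor receptor, -1.30 and -1.47, while Prss34, a basophil protease, read 0.86 and 1.28. Mcpt8, another basophil protease, read -0.81 and -0.09. Its value thus differed between the urines, and with 1 array each this was not tested.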
